A study of Mus musculus with 6 samples.

Results

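The galectin genes Lgals1, Lgals3, Lgals8 and Lgals9, with Lgals3bp, the gene of galectin-3 binding protein, were followed in RNA sequencing of mouse aorta. The members were chosen by symbol, as the rows of a raw count table whose Ensembl gene IDs map to these 5 names, and all 5 were found among 55401 gene IDs. All 5 passed the filter on low counts, which left 19833 genes. The choice was made with the contrast between the groups in view, so the levels of the members are described here with no test. The data were 3 libraries from ApoE-/- mice, titled Apo-/-, and 3 libraries from IL16-/-ApoE-/- mice, also called double mutants here. Both groups are labelled as lacking Apoe, which encodes the apolipoprotein E that lets the liver clear lipoprotein remnants, and both received a high-fat diet for 24 weeks from an age of 8 weeks. By their labels they differ in the loss of Il16, which encodes a secreted cytokine that binds CD4. The labels do not say which exons the alleles remove, whether aortas were pooled, what sex the mice were or whether each library is a separate animal, so p-values measure the spread between these libraries.

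Galectins are small proteins that bind beta-galactoside sugars. They leave the cell without a signal peptide, cross-link glycoproteins on cell surfaces and in the matrix, and inside the cell mark lysosomes whose sugars have been exposed by damage. Galectin-1 is a dimer made by smooth muscle, fibroblasts and endothelium. Galectin-3 joins a sugar-binding domain to a long flexible tail and is abundant in macrophages, foam cells and smooth muscle cells that have taken up lipid. Galectins 8 and 9 carry a pair of different sugar-binding domains in one chain. Galectin-3 binding protein is no galectin. It is a secreted, heavily glycosylated scavenger-receptor protein that galectins 1 and 3 bind, and its gene, like Lgals9, is known to respond to interferon.

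The family relation is visible in the coding sequence around the sugar-contacting residues. The stretches below are shown because they separate the 4 galectins from the binding protein. They run from a first anchor, the codons CAN, TTN and AAN followed by CC, to a second, TGGGG, both in capitals, on the coding strand of the longest GENCODE M21 basic transcript, and each lies in frame inside a coding exon.
Lgals1: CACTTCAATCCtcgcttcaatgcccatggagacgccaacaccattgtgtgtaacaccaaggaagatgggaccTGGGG
Lgals3: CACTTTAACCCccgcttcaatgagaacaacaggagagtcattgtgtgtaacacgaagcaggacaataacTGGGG
Lgals8: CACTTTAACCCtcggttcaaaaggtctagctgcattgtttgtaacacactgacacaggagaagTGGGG
Lgals9: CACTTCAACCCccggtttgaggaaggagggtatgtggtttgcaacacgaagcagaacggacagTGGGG
In GRCm38 the Lgals1 stretch is in exon 3 of 4 at chr15:78929676-78929752 on the plus strand and the Lgals3 stretch in exon 5 of 6 at chr14:47384642-47384715 on the plus strand. That of Lgals8 is in exon 5 of 11 at chr13:12454820-12454887 and that of Lgals9 in exon 3 of 11 at chr11:78973073-78973140, both on the minus strand. The stretch is 77 bases long in Lgals1, 74 in Lgals3 and 68 in Lgals8 and Lgals9. The 2330-base transcript of Lgals3bp held no such pair of anchors 49 to 65 bases apart. Among 21877 protein-coding gene names, 28 (0.128%) had a transcript with the pair, of which 7 are galectins (these 4 with Lgals2, Lgals4 and Lgals7). The others, such as Hdac9, Klf7 and Myb, are not, and the galectin Lgals12 is not among the 28. The anchors and their spacing were drawn from these 4 transcripts and narrowed after a looser form had been tried, so the share is only a description.

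Library totals ran from 65730600 to 85568300 counts in ApoE-/- and from 42862000 to 47208800 in IL16-/-ApoE-/- aorta, and the ranges of the groups did not meet. Values are CPM, a gene's count relative to the library total, after TMM scaling, which corrects totals for a few dominant genes. Il16 was at 28.3, 28.6 and 15.1 CPM in libraries 1, 2 and 3 of ApoE-/-, against 7.92, 12.1 and 12.2 CPM in IL16-/-ApoE-/- aorta (log2 fold change -1.16, SE 0.32). Reads of Il16 thus remained in the double mutants, and whether they lie in the deleted part is not given. Apoe, labelled as lost in both groups, was at 45.0, 24.9 and 20.9 CPM, against 138, 183 and 137 CPM (log2 fold change 2.34, SE 0.33, adjusted p = 0.0369 in edgeR's quasi-likelihood test), and whether these reads lie in the deleted part is not given. The ApoE-/- libraries were less alike (biological coefficient of variation 0.590) than the double mutants (0.209). ApoE-/- 1 had 474 CPM of the X-inactivation RNA Xist and 0.143 CPM of the Y-linked Ddx3y, a female pattern, and the other 5 libraries had 0.497 to 6.21 and 70.1 to 136 CPM, so it did not come from the same animal as ApoE-/- 2 or 3. Smooth muscle was represented in every library, with the myosin gene Myh11 at 1157 to 8493 CPM and the actin gene Acta2 at 1797 to 11546 CPM. Kidney tubule markers were present in IL16-/-ApoE-/- aorta, where 12 of them, among them Kap and Umod, summed to 553 to 615 CPM against 1.52 to 2.90 CPM in ApoE-/-. Kap, Umod, Slc12a1, Miox, Slc22a12, Acsm2, Mep1a and Klk1 had no count in any ApoE-/- library.

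Galectin-1 was higher in every double mutant library and differed little within either group. Lgals1 (ENSMUSG00000068220, GRCm38 chromosome 15, 78926725 to 78930465, plus strand) measured 195, 184 and 208 CPM in libraries 1, 2 and 3 of ApoE-/-, against 613, 616 and 602 CPM in double mutants 1, 2 and 3. The 3 double mutant libraries lay above all 3 ApoE-/- libraries, and within each group the libraries were nearly level. The mean was 196 ± 12.0 CPM in ApoE-/- and 610 ± 7.27 CPM in IL16-/-ApoE-/- aorta (SD, n = 3 each), a ratio of 3.12 and a log2 fold change of 1.64 (SE 0.20). The highest ApoE-/- library was 1.13 times the lowest, and the highest double mutant library 1.02 times the lowest. Leaving out any 1 library gave log2 fold changes of Lgals1 from 1.60 to 1.68.

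**Figure D1:**
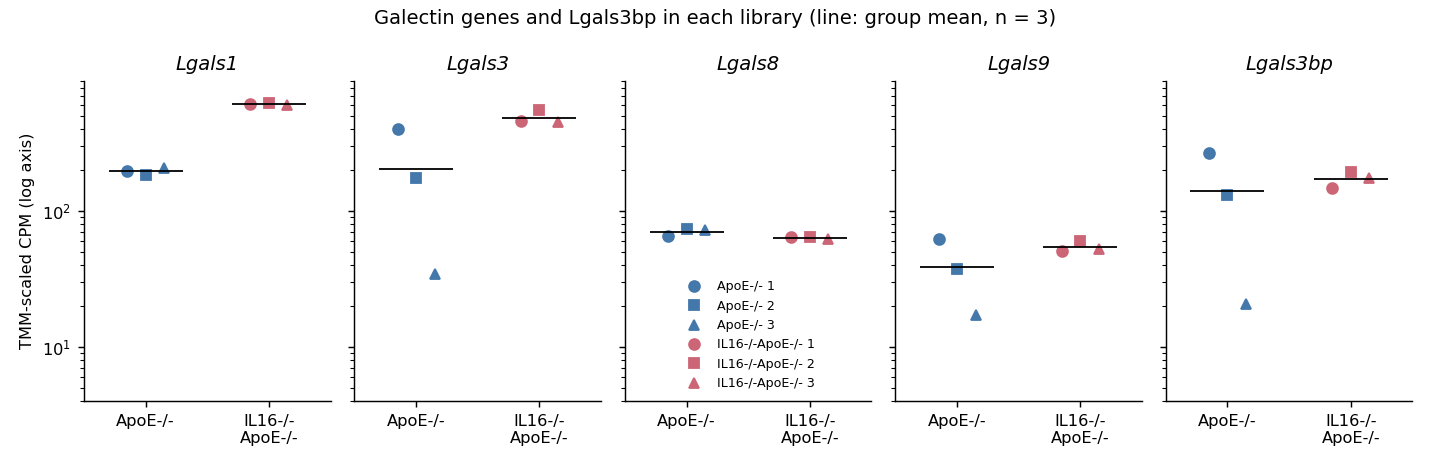
TMM-scaled CPM (log axis) of the 5 members in each of the 6 libraries, with a line at each group mean. Lgals1 is near 200 CPM in all ApoE-/- libraries and at 602 CPM or more in all double mutant libraries, Lgals8 is at 62.6 to 74.0 CPM throughout, and Lgals3, Lgals9 and Lgals3bp are lowest in ApoE-/- 3.

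The Lgals1 transcript, at 800 bases, is the shortest of the members, and short transcripts as a class had a higher median in IL16-/-ApoE-/- aorta. Over 3184 tested genes with transcripts under 1000 bases the median log2 fold change was 0.46, and 20.6% of them had a value above that of Lgals1. The median was 0.06 over 5069 genes of 1000 to under 2000 bases, the class of Lgals3 (1298 bases) and Lgals9 (1520 bases). It was -0.11 over 7511 genes of 2000 to under 4000 bases, the class of Lgals8 and Lgals3bp, and -0.22 over 4041 genes of 4000 bases or more. After each library's dependence of log2 CPM on transcript length was subtracted, the log2 fold change of Lgals1 was 1.16 (SE 0.19) and that of Lgals3 1.14 (SE 0.73). On that scale the values of Lgals1 and Lgals3 lay closer together than either SE. The length classes were chosen after the data had been seen.

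**Figure D2:**
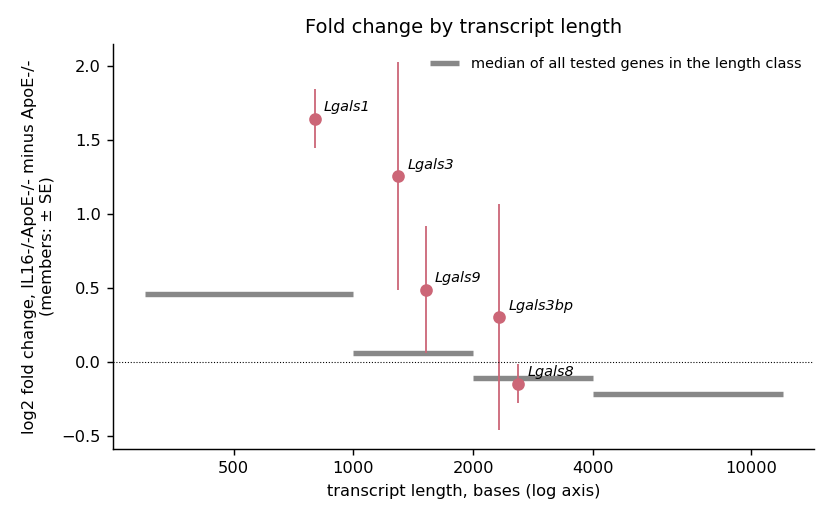
Log2 fold change (IL16-/-ApoE-/- minus ApoE-/-) of the 5 members (points, ± SE) against transcript length in bases (log axis), with grey lines at the median of all tested genes in 4 length classes, the outer 2 of which are open-ended. The medians fall from 0.46 in the shortest class to -0.22 in the longest, and Lgals1 lies above the median of its class.

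Lgals1-ps1 and Lgals1-ps2, which carry the name of Lgals1 as pseudogenes, held 0 counts and 1 to 9 counts per library. The best local alignment of either to the Lgals1 transcript was 12 bases long. Against Lgalsl, the galectin-like gene whose symbol ends in the letter l, Lgals1-ps1 aligned over 377 columns with 88.3% identity and Lgals1-ps2 over 519 columns with 91.1%.

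The genes most like Lgals1 over the 6 libraries, by Pearson correlation of log2 CPM among 9833 tested genes with a mean of at least 10 CPM, were S100a6, Umod and Acsm2 (r = 0.999, 0.998 and 0.998). S100a6, a small calcium-binding protein gene, was at 43.8 to 52.4 CPM in ApoE-/-, against 158 to 165 CPM in IL16-/-ApoE-/- aorta (log2 fold change 1.72, SE 0.15). Umod, of the kidney thick ascending limb, had no count in ApoE-/- and 29.8 to 32.3 CPM in IL16-/-ApoE-/- aorta, and Acsm2, a kidney tubule enzyme gene, none and 37.4 to 40.2 CPM. For all of these the 6 libraries form 2 separate clusters, so the measure mainly records a step between the groups. The kidney tubule marker sum thus moved with Lgals1, and its part in the level of Lgals1 was not tested. Smooth muscle markers did not follow Lgals1. Their 10 genes, among them Myh11 and Acta2, summed to 4631, 20896 and 29898 CPM in ApoE-/- 1, 2 and 3 and to 9269 to 10498 CPM in IL16-/-ApoE-/- aorta, so ApoE-/- 1 was lowest and ApoE-/- 3 highest while Lgals1 was level in that group. Endothelial markers, among them Pecam1 and Cdh5, summed to 784 to 1227 CPM and 1428 to 1450 CPM, and fibroblast markers, among them Pdgfra and Dcn, to 8069 to 11016 CPM and 8255 to 9407 CPM. In bulk tissue, more cells of a type and more RNA per cell cannot be told apart.

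Galectin-3 varied chiefly among the ApoE-/- libraries. Lgals3 (ENSMUSG00000050335, chromosome 14, 47367751 to 47386160, plus strand) measured 403, 174 and 34.3 CPM in libraries 1, 2 and 3 of ApoE-/-, against 461, 547 and 449 CPM in IL16-/-ApoE-/- aorta. All double mutant libraries were above all ApoE-/- libraries, but ApoE-/- 1 came close to them and ApoE-/- 3 was far below. The mean was 204 ± 186 CPM against 486 ± 53.5 CPM (SD, n = 3 each), with a log2 fold change of 1.25 (SE 0.77). Without ApoE-/- 3 the log2 fold change was 0.75 (SE 0.39), and without ApoE-/- 1, the library of female pattern, it was 2.22 (SE 0.67). In limma-voom it was 1.85, and 1.76 with sample weights, above the values of Lgals1 in those fits (1.64 and 1.69). Settings in which the order of these 2 members turned included those fits and the fit without ApoE-/- 1. A single library thus moved the value by more than 1.5 times in either direction.

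The level of Lgals3 varied with macrophage genes from library to library. Macrophage markers, 16 genes that include Cd68 and the lysozyme gene Lyz2, summed to 7576, 3879 and 635 CPM in ApoE-/- 1, 2 and 3 and to 6910, 9443 and 7332 CPM in IL16-/-ApoE-/- aorta. Lyz2 was the largest part of the sum in every library, at 258 to 3558 CPM in ApoE-/- and 3525 to 5092 CPM in double mutants. The log2 fold changes of the 16 ran from -0.58 (Mrc1) to 2.11 (Tyrobp), with 14 above 0 and 2 below. Cd68 was at 1.65, Lyz2 at 1.16, Adgre1 at 0.14 and Cybb at 0.03. Lgals3 amounted to 5.31%, 4.49% and 5.39% of that sum in ApoE-/- and to 6.67%, 5.80% and 6.13% in IL16-/-ApoE-/- aorta. Against Lyz2 alone the ratio was 0.113, 0.0996 and 0.133 in ApoE-/- and 0.131, 0.107 and 0.118 in IL16-/-ApoE-/- aorta. Against Cd68 it was 2.55, 1.61 and 2.37 in ApoE-/-, and 1.66, 1.62 and 1.70 in double mutants 1, 2 and 3. The ratios to Lyz2 and to Cd68 overlapped between the groups, while the share of the macrophage sum was higher in every double mutant library, by less than the level of Lgals3 itself. How many of all genes would separate the groups in such a share was not counted. Foam cell genes, among them Gpnmb and Spp1, summed to 12718, 9053 and 2594 CPM and to 15925, 20032 and 17014 CPM in the same order of libraries. The part of macrophage content in the level of Lgals3 was not tested. Its nearest genes were Pde1b, a cyclic nucleotide phosphodiesterase, Fcgr1, the high-affinity IgG receptor of macrophages, and Tmem8 (r = 0.999, 0.999 and 0.998 over 6 libraries). Fcgr1 was at 26.8, 12.7 and 3.43 CPM in ApoE-/-, against 26.0 to 30.7 CPM in IL16-/-ApoE-/- aorta.

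**Figure D3:**
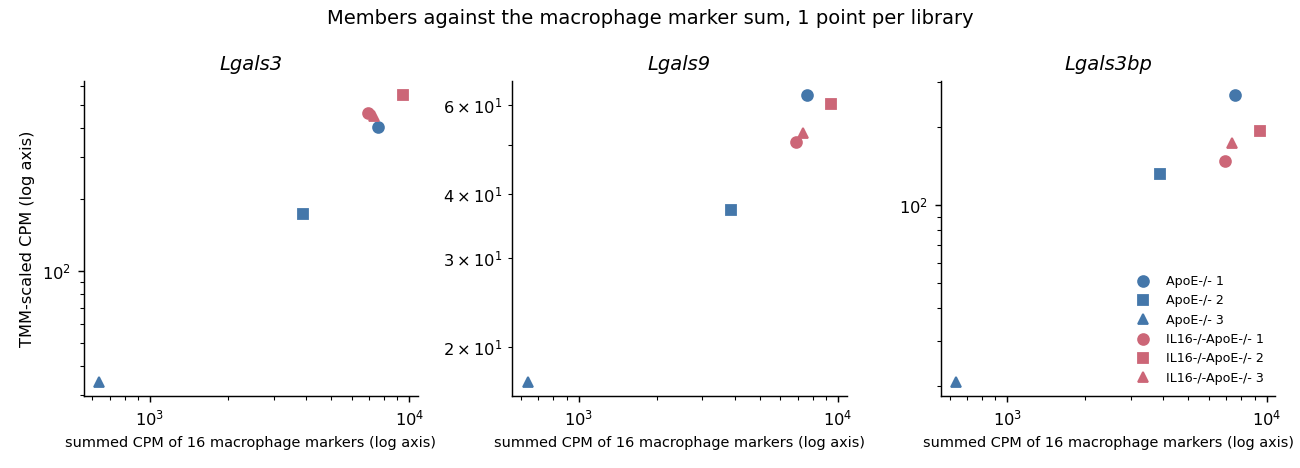
TMM-scaled CPM of Lgals3, Lgals9 and Lgals3bp (log axis) against the summed CPM of 16 macrophage markers (log axis), 1 point per library. ApoE-/- 3 is lowest on both axes in each panel, ApoE-/- 2 next, and ApoE-/- 1 lies near the double mutants.

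Galectin-3 binding protein shared the spread of Lgals3 but not its position between the groups. Lgals3bp (ENSMUSG00000033880, chromosome 11, 118392751 to 118402092, minus strand) measured 266, 132 and 20.8 CPM in libraries 1, 2 and 3 of ApoE-/-, against 149, 193 and 173 CPM in IL16-/-ApoE-/- aorta. The groups overlapped, with ApoE-/- 1 the highest of all libraries and ApoE-/- 3 the lowest. The mean was 139 ± 123 CPM against 172 ± 22.5 CPM (SD, n = 3 each), with a log2 fold change of 0.30 (SE 0.77). Without ApoE-/- 3 the sign turned, to -0.21 (SE 0.33), and without ApoE-/- 1 the value was 1.17 (SE 0.72). In limma-voom it was 0.92, and 0.74 with sample weights.

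Lgals3bp relative to Lgals3 did separate the groups. This ratio, chosen after the data had been seen like the others given here, was 0.660, 0.756 and 0.608 in libraries 1, 2 and 3 of ApoE-/-, against 0.322, 0.353 and 0.386 in IL16-/-ApoE-/- aorta. Within ApoE-/- this ratio stayed within a narrow range although both genes varied by more than 10 times, and every double mutant library lay below it. Relative to Lgals3, the macrophage markers Csf1r, Adgre1 and Cybb were also lower in every double mutant library, while Lyz2 and Cd68 overlapped. Tyrobp went the other way and was higher relative to Lgals3 in every double mutant library. It was at 71.0, 23.0 and 6.06 CPM in ApoE-/- 1, 2 and 3, against 129, 162 and 139 CPM in double mutants. These markers were picked from the macrophage list after their values had been seen. Csf1r was at 275, 145 and 40.5 CPM in ApoE-/- 1, 2 and 3, against 136, 183 and 140 CPM in double mutants. The share of all genes that separate in this way was not counted. Relative to the macrophage sum, Lgals3bp was at 3.51%, 3.39% and 3.28% in ApoE-/- and at 2.15%, 2.05% and 2.37% in IL16-/-ApoE-/- aorta, again without overlap. Ratios within a library show unequal change of their parts and not which part changed, and with 3 libraries a side no exact test on them could pass 0.05. The genes most like Lgals3bp were Ncf1, a subunit gene of the phagocyte NADPH oxidase, the zinc transporter Slc39a11 and the ubiquitin-conjugating enzyme Ube2e2 (r = 0.999 for each over 6 libraries). Slc39a11 was at 21.1, 15.5 and 5.61 CPM in ApoE-/-, against 15.9 to 18.4 CPM in IL16-/-ApoE-/- aorta.

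**Figure D4:**
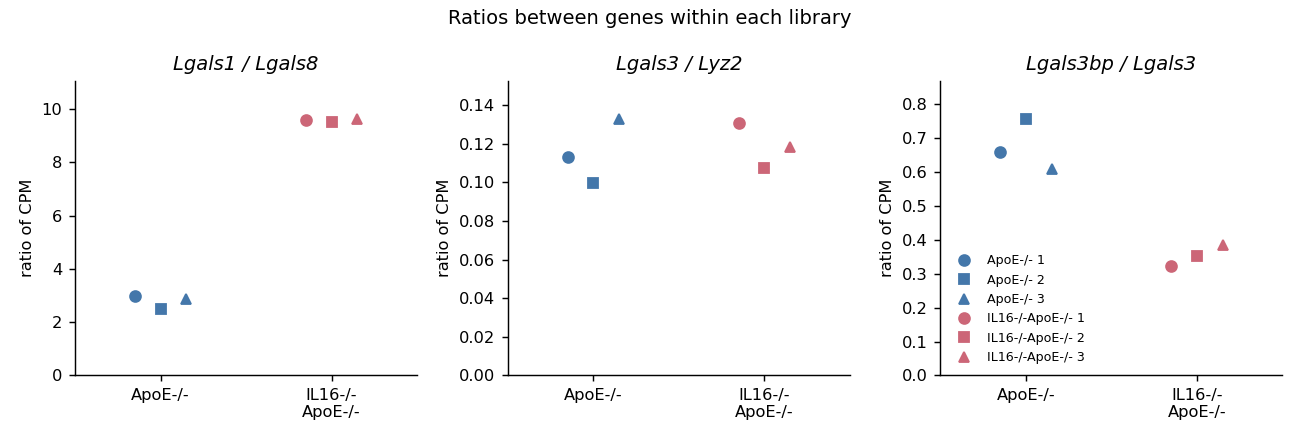
Ratio of CPM between gene pairs within each library, for Lgals1 to Lgals8, Lgals3 to Lyz2 and Lgals3bp to Lgals3 (linear axes from 0). The first ratio is 2.48 to 2.98 in ApoE-/- and 9.51 to 9.62 in IL16-/-ApoE-/- aorta, the second overlaps between groups, and the third is 0.608 to 0.756 against 0.322 to 0.386.

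Galectin-9 had a smaller spread of the same order. Lgals9 (ENSMUSG00000001123, chromosome 11, 78962974 to 78984946, minus strand) measured 62.6, 37.2 and 17.1 CPM in libraries 1, 2 and 3 of ApoE-/-, against 50.8, 60.3 and 52.9 CPM in IL16-/-ApoE-/- aorta. ApoE-/- 1 was above all double mutant libraries and ApoE-/- 2 and 3 below them. The mean was 39.0 ± 22.8 CPM against 54.6 ± 5.01 CPM (SD, n = 3 each), with a log2 fold change of 0.49 (SE 0.43). It was 0.13 (SE 0.24) without ApoE-/- 3 and 1.01 (SE 0.33) without ApoE-/- 1. Lgals9 made up 2.69% of the macrophage sum in ApoE-/- 3, the library with fewest macrophage transcripts, and 0.639% to 0.959% elsewhere. Its nearest genes were the chloride channel subunit Lrrc8d, the complement gene C1qa and the folate receptor Folr2 (r = 1.00, 0.999 and 0.999 over 6 libraries). C1qa, a product of tissue macrophages, was at 454, 166 and 39.8 CPM in ApoE-/-, against 333 to 442 CPM in IL16-/-ApoE-/- aorta.

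The promoters of the 3 members that varied together in ApoE-/- are shown because Lgals9 and Lgals3bp are interferon-responsive genes. RefSeq (GRCm38.p6) gave a window from 250 bases before to 50 bases after the start for 4 of the 5 members. Capitals mark matches on either strand to the interferon-stimulated response element core (GAAA, any 2 bases, GAAA) or to the interferon regulatory factor core AANNGAAA, which is contained in the longer one.
Lgals3: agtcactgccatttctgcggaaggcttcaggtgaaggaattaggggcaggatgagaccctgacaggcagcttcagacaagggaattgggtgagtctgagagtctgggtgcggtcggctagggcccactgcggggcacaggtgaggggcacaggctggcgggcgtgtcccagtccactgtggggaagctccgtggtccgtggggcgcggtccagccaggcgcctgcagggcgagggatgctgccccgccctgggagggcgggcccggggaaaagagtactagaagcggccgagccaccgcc
Lgals9: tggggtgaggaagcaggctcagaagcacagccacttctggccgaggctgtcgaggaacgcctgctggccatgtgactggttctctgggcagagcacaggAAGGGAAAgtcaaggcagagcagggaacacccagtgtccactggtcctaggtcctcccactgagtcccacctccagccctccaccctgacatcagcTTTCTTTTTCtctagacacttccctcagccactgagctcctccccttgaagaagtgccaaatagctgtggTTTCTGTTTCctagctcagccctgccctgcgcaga
Lgals3bp: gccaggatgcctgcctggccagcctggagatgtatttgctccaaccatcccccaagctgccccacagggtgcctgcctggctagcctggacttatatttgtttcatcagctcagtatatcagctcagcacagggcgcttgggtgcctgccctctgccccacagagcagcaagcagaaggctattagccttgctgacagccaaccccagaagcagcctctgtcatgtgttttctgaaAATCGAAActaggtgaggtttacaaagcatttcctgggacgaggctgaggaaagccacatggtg
The Lgals3 window is chr14:47373610-47373909 on the plus strand, with its start 6109 bases inside the M21 gene. The Lgals9 window is chr11:78984875-78985174 and the Lgals3bp window chr11:118401910-118402209, both on the minus strand, with starts 22 and 133 bases inside the gene. Lgals9 held 2 matches to the longer core, both on the opposite strand, from -55 to -46 and from 15 to 24 counted from the start as 0, and 3 to AANNGAAA. Lgals3bp held no match to the longer motif and 1 to the shorter, from -14 to -7. Lgals3 and Lgals8 held no match to either. Of 32851 RefSeq windows of this length, 3.44% held the longer core and 23.9% the shorter. The motifs, which also took in PU.1, AP-1, GC box and TATA box cores, were picked after the sequences had been read. A match in these letters is a description and not evidence of binding.

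Interferon response genes were measured beside these members. Of 15 genes, all tested, 0 passed in edgeR's quasi-likelihood test, in DESeq2 or in limma-voom, where 1.20%, 8.59% and 2.06% of all tested genes passed. In edgeR 0 had an unadjusted p under 0.05, beside 15.9% of all genes. In limma-voom with sample weights 1 passed, beside 16.9% of all genes. The median log2 fold change was 0.31, against -0.05 over all 19833 tested genes. In CPM the groups did not overlap in 1 of the 15 (higher) and in 0 (lower), beside 14.9% and 11.5% of all tested genes. The 15 summed to 949, 459 and 196 CPM in ApoE-/- 1, 2 and 3 and to 432 to 478 CPM in IL16-/-ApoE-/- aorta. ApoE-/- 1 and 3 were thus the extremes of this list as they were of Lgals3bp. The first by p were the ubiquitin-like Isg15, at 2.71 to 7.98 CPM in ApoE-/-, against 8.36 to 9.35 CPM in IL16-/-ApoE-/- aorta (log2 fold change 0.77, SE 0.40), and the antiviral GTPase gene Mx1, at 1.42 to 6.36 and 5.64 to 8.26 CPM (0.89, SE 0.54).

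Galectin-8 had the smallest difference of the 5 members. Lgals8 (ENSMUSG00000057554, chromosome 13, 12439415 to 12464944, minus strand) measured 65.5, 74.0 and 72.6 CPM in libraries 1, 2 and 3 of ApoE-/-, against 63.9, 64.7 and 62.6 CPM in IL16-/-ApoE-/- aorta. All double mutant libraries were below all ApoE-/- libraries, ApoE-/- 1 by a small margin. The mean was 70.7 ± 4.56 CPM against 63.8 ± 1.07 CPM (SD, n = 3 each), with a log2 fold change of -0.15 (SE 0.13). Its value stayed between -0.20 and -0.10 over all 16 alternatives. The last 875 bases of the gene (12439415 to 12440289) overlap Heatr1 on the opposite strand, and since the strand setting of the counting is not given, reads there cannot be told apart. Heatr1, a ribosome assembly gene, was at 21.5 to 28.3 CPM over the 6 libraries. Set against Lgals8 within each library, Lgals1 was 2.98, 2.48 and 2.86 times as high in ApoE-/- and 9.59, 9.51 and 9.62 times as high in IL16-/-ApoE-/- aorta. The genes most like Lgals8 were the phosphodiesterase family gene Enpp5, the leucyl-tRNA synthetase gene Lars and Tm9sf3 (r = 0.999, 0.997 and 0.995 over 6 libraries), with log2 fold changes of -0.30 (SE 0.15), -0.33 (SE 0.15) and -0.33 (SE 0.20).

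Levels were compared between the members per kilobase of transcript, the median length over a gene's basic transcripts. In each double mutant library the order was Lgals1 (753 to 770 CPM per kb), Lgals3 (346 to 422), Lgals3bp (63.7 to 83.0), Lgals9 (33.4 to 39.7) and Lgals8 (24.1 to 24.9), and no neighbours overlapped. In ApoE-/- 1 galectin-3 led, with 310 CPM per kb against 244 for Lgals1. In ApoE-/- 2 the order was Lgals1 (230), Lgals3 (134), Lgals3bp (56.5), Lgals8 (28.5) and Lgals9 (24.5). In ApoE-/- 3 Lgals1 (260) was followed by Lgals8 (27.9) and Lgals3 (26.4), and Lgals3bp (8.95) was last. Over the ApoE-/- libraries the range of Lgals1 (230 to 260) lay within that of Lgals3 (26.4 to 310) and above those of the other 3, and Lgals3, Lgals3bp, Lgals8 and Lgals9 all overlapped. Lgals1 made up 33.2%, 48.5% and 77.7% of the summed CPM per kb of the 5 members in libraries 1, 2 and 3 of ApoE-/-, against 57.5% to 61.6% in IL16-/-ApoE-/- aorta. Lgals3 took 42.2%, 28.3% and 7.90% in ApoE-/- and 28.1% to 31.5% in IL16-/-ApoE-/- aorta.

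In 3 of the 5 the groups did not overlap (Lgals1 and Lgals3 higher, Lgals8 lower), beside 26.4% of all tested genes (14.9% higher, 11.5% lower). The median log2 fold change of the 5 was 0.49, against -0.05 over all tested genes. The members were chosen with this contrast known, so nothing is read from either comparison.

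**Figure D5:**
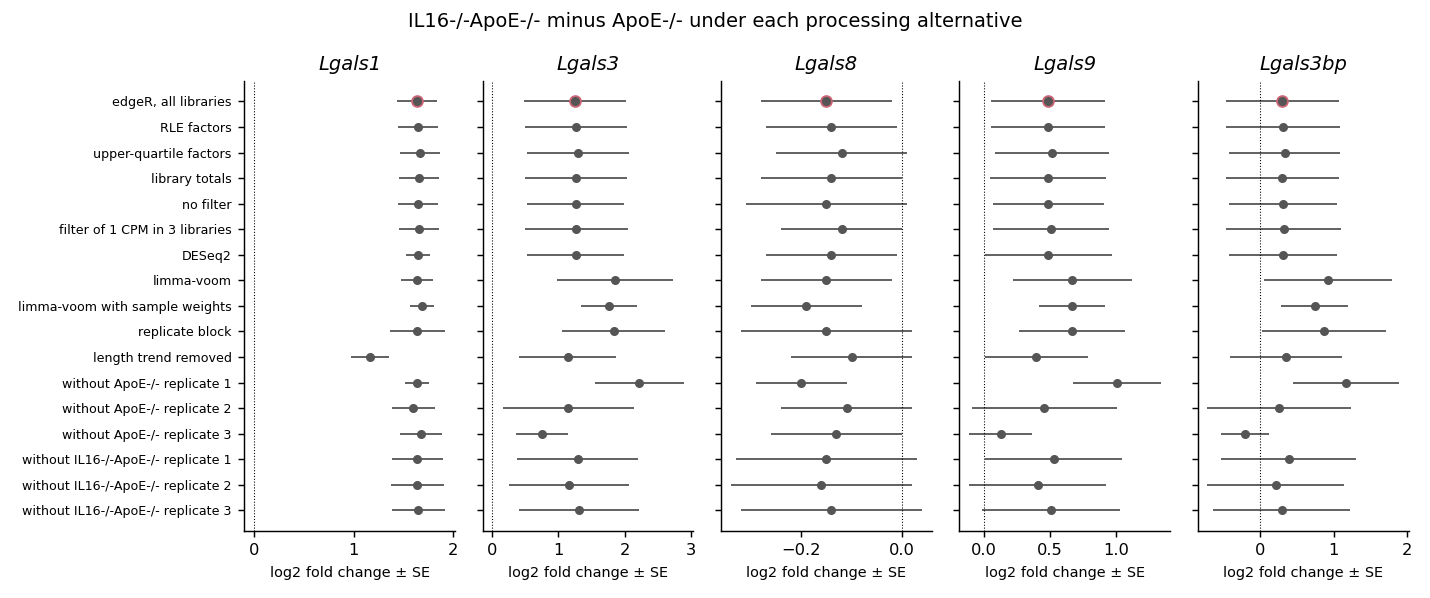
Log2 fold change ± SE of each member under the main fit (ringed in red) and 16 alternatives, with a separate horizontal scale in each panel and a dotted line at 0. Lgals1 stays between 1.16 and 1.69 and Lgals8 between -0.20 and -0.10, and Lgals3, Lgals9 and Lgals3bp are highest without ApoE-/- 1 and lowest without ApoE-/- 3.

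The other galectin genes were mostly low in aorta. Of 7 listed, 6 were in the table and 3 were tested. Of these 3, 0 passed in edgeR (1.20% of all genes), DESeq2 (8.59%) or limma-voom (2.06%). In edgeR 2 had an unadjusted p under 0.05 (15.9% of all genes), and 3 passed in limma-voom with sample weights (16.9%). Lgals12, a galectin of fat cells, was at 47.9, 8.61 and 6.66 CPM in libraries 1, 2 and 3 of ApoE-/-, against 38.2 to 42.6 CPM in IL16-/-ApoE-/- aorta (log2 fold change 0.95, SE 0.74). It kept step with the fat-cell hormone gene Adipoq, at a ratio of 0.0886 to 0.134 in ApoE-/- and 0.101 to 0.132 in IL16-/-ApoE-/- aorta. The fat-cell markers, among them Adipoq and Fabp4, summed to 10071, 1439 and 1084 CPM in ApoE-/-, against 7885 to 8733 CPM in IL16-/-ApoE-/- aorta. Lgals4, known from gut epithelium, was at 11.7, 2.85 and 7.40 CPM against 14.3 to 18.0 CPM (1.17, SE 0.48). Lgalsl, a galectin-like gene without sugar binding and with a 3362-base transcript, was at 50.9, 98.3 and 128 CPM against 45.5 to 48.7 CPM (-0.99, SE 0.33). The groups did not overlap in Lgals4 (higher) or Lgalsl (lower), beside 26.4% of all tested genes (14.9% higher, 11.5% lower). With 3 tested genes nothing is read from this. Lgals2 had 0 to 11 counts per library, Lgals7 0 to 29, and Grifin 13 counts in double mutant 1 and 0 elsewhere.

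Among 20 cell surface and matrix partners of galectins, all tested, 1 rose and 0 fell in edgeR, beside 1.14% and 0.0605% of all tested genes, with a median log2 fold change of 0.26. DESeq2 and limma-voom each called 1 of the 20, beside 8.59% and 2.06% of all genes. In CPM the groups did not overlap in 5 of the 20 (higher) and in 0 (lower), beside 14.9% and 11.5% of all tested genes. The list was chosen with earlier results known, so nothing is read from these counts. The gene that rose was Cd209a, a DC-SIGN lectin gene of dendritic cells, at 1.12 to 2.32 CPM in ApoE-/-, against 7.28 to 9.36 CPM in IL16-/-ApoE-/- aorta (2.20, SE 0.36, adjusted p = 0.0476). Settings without its call included library totals as scaling, removal of the length trend, leaving out ApoE-/- 2 and leaving out any 1 double mutant library. The galectin-9 receptor gene Havcr2 was at 13.3, 11.4 and 1.54 CPM in ApoE-/-, against 13.3 to 18.9 CPM in IL16-/-ApoE-/- aorta, and the integrin chain Itgb1 was lowest in ApoE-/- 1, at 633 CPM, and highest in ApoE-/- 2, at 1648 CPM. Havcr2 and Itgb1 were chosen after their values had been seen.

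Enzymes that build or cap the glycans galectins bind showed no call. Of 14, all tested, 0 passed in edgeR, DESeq2 or limma-voom, 0 had an unadjusted p under 0.05 (15.9% of all genes) and 2 passed in limma-voom with sample weights (16.9% of all genes). The median was 0.04. In CPM the groups did not overlap in 2 of the 14 (higher) and in 1 (lower), beside 14.9% and 11.5% of all tested genes. The first by p were Gcnt1, which starts branches on O-glycans, at 14.0 to 22.9 CPM in ApoE-/-, against 24.8 to 26.6 CPM in IL16-/-ApoE-/- aorta (0.44, SE 0.21), and the galactosyltransferase gene B4galt1, at 81.7 to 117 and 126 to 131 CPM (0.31, SE 0.19). Of 14 tested genes of the damaged-lysosome response in which galectins 3, 8 and 9 take part, 0 passed in edgeR, DESeq2 or limma-voom, 0 had an unadjusted p under 0.05 (15.9% of all genes) and 2 passed in limma-voom with sample weights (16.9% of all genes). Their median was -0.22. In CPM the groups did not overlap in 5 of them (lower) and in 1 (higher), beside 11.5% and 14.9% of all tested genes. The lists were chosen with earlier results known, so nothing is read from these counts. The first by p were Fbxo27, an F-box gene of glycoprotein ubiquitination, at 2.43 to 7.03 and 1.38 to 3.06 CPM (-1.25, SE 0.52), and the lysosomal amino acid sensor Slc38a9, at 22.5 to 28.7 and 18.1 to 20.6 CPM (-0.35, SE 0.17).

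Markers of the remaining cell types are given as sums over each list. Modulated smooth muscle markers, among them Tnfrsf11b and Ly6a, summed to 664 to 1708 CPM in ApoE-/-, against 2259 to 2452 CPM in IL16-/-ApoE-/- aorta. Tnfrsf11b (32.6 to 111 against 74.4 to 83.3 CPM) and Ly6a (70.0 to 233 against 214 to 276 CPM) each overlapped between the groups. Of the 9 markers Lum was the largest in every library, at 189 to 850 CPM in ApoE-/-, against 975 to 1130 CPM. T and B cell markers, among them Cd3e and Cd3d, summed to 5.08 to 48.6 and 47.5 to 64.2 CPM, and Cd3d had no count in ApoE-/- 3. Skeletal and cardiac muscle markers, among them Ckm and Myh4, summed to 30.1 to 114 and 196 to 671 CPM. Their part in the levels of the members was not tested.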

How the data were processed

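Polyadenylated RNA from aorta was made into strand-marking libraries, per the labels' protocols. What the authors deposited is a single matrix of read counts by Ensembl gene ID; its values are whole and its column sums differ, so it was taken as not normalized. Per the submitters' processing notes the tools were Cutadapt, HISAT2 and StringTie, with no version. Not given in the sources used here are the build, annotation, counting program and strand setting. Symbols, positions and lengths came from GENCODE M21 (GRCm38), in which 55141 of the 55401 IDs matched. Groups and replicate numbers came from the titles.

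Genes were kept by filterByExpr (minimum count 10, minimum total 15), scaled by TMM and compared with edgeR's quasi-likelihood test (two-sided, robust, group as the only term); p-values were adjusted by Benjamini-Hochberg over all tested genes, with a threshold of 0.05. The SE is the log2 fold change divided by the square root of F. Log2 CPM used a prior count of 2. The fit was tested on simulated data that gave both groups the same spread, so the unequal spread of these groups was not covered. Members and lists were chosen with earlier results of these data known. Named genes were Il16, Apoe, the members, all other galectins with a count, up to 4 called genes of each galectin-related list or the 2 with the smallest p, the first 2 markers of each cell type list, and the 3 genes most like each member. Among others, Havcr2, Itgb1, Csf1r, Adgre1, Cybb, Mrc1, Tyrobp and Lum were named outside this rule, after their values had been seen. Length classes and within-library ratios were chosen after seeing the data. The 16 alternatives were 3 other scalings, 2 other filters, DESeq2, limma-voom with and without sample weights, removal of the length trend, a replicate block (titles share numbers) and leaving out each of the 6 libraries. R 4.3.3, edgeR 4.0.16, limma 3.58.1, DESeq2 1.42.0, Python 3.11.15 and matplotlib 3.10.9 were used.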

Additional observations from a re-analysis of the deposited data

How the results depend on the processing

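Over 16 alternatives the log2 fold change kept its sign for Lgals1 (1.16 to 1.69), Lgals3 (0.75 to 2.22), Lgals8 (-0.20 to -0.10) and Lgals9 (0.13 to 1.01). That of Lgals3bp ran from -0.21, without ApoE-/- replicate 3, to 1.17, without ApoE-/- replicate 1. Of the member values, only Lgals1 with the length trend removed (1.16) moved by more than its spread between libraries, which is small (0.0640 in log2 CPM). Leaving out each library in turn gave 1.60 to 1.68 for Lgals1.

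Called genes numbered 238 in the edgeR fit, 1697 in DESeq2, 409 in limma-voom and 3351 in limma-voom with sample weights. With the replicate block 0 were called, with 2327 at an unadjusted p under 0.05, and Lgals1 was at 1.64 and Lgals3 at 1.83. Same-numbered libraries did not deviate together (r = -0.0400, -0.0271 and -0.00951), so the numbers do not pair them. No library correlated best with its own number. Without 1 library the count ran from 0 (without any 1 double mutant library, 1920 to 2042 at an unadjusted p under 0.05) to 5231 (without ApoE-/- replicate 1). It was 108 without ApoE-/- replicate 2. With sample weights the calls were 3 other galectins, 5 partners, 2 glycan enzymes, 2 damaged-lysosome genes and 1 interferon gene. For partners 0 were called with library totals, the replicate block or the length trend removed. Without 1 library the ranges were 0 to 3 for other galectins, glycan enzymes, damaged-lysosome genes and interferon genes and 0 to 5 for partners, the highest each time without ApoE-/- replicate 1. The cause was not tested. Depth limits Lgals2, Lgals7 and Grifin, where a count of 0 allows up to 3 counts, 0.0358 to 0.0698 CPM (counting error only).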
